A study of Mus musculus with 12 samples.

Results

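The genes examined here encode the proteins of the cytosolic ribosome in mouse bone marrow-derived macrophages (BMDMs, macrophages grown from bone marrow in culture). They were taken by symbol: autosomal protein-coding genes of the RefSeq mm10 table named Rpl or Rps followed by a number, without the Rps6k kinase genes and without symbols that mark a pseudogene. The rule gave 81 of 20665 autosomal protein-coding genes. Of these, 69 encode standard ribosomal proteins, 40 of the large subunit (Rpl) and 29 of the small subunit (Rps), and are called core genes here. The other 12 are paralogues, retrogenes and 1 gene for a binding protein of Rps19 (Rpl10l, Rpl22l1, Rpl32l, Rpl36al, Rpl37rt, Rpl39l, Rpl3l, Rpl7l1, Rps19bp1, Rps23rg1, Rps27l and Rps27rt). The assay was ATAC-seq, which inserts sequencing adapters into accessible DNA with a transposase, and it gave 1 list of called peaks per library.

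The 12 libraries fall into 8 groups by Baf60a genotype, oxidised LDL (oxLDL, 50 µg/ml for 48 h) and cohort. Baf60a belongs to SWI/SNF, a complex that moves and evicts nucleosomes. The ApoE KO cohort has 2 libraries each of oxLDL KO, oxLDL WT, untreated KO and untreated WT cells, all of them ApoE KO, from cryopreserved BMDMs and a Nextera kit. Its KO cells carry Baf60af/f with Lyz2 Cre+, a Cre active in myeloid cells, and its WT cells are Baf60af/f with Lyz2 Cre-. The Omni-ATAC cohort, made with the Omni-ATAC protocol, has 1 library each of oxLDL KO, oxLDL WT, untreated KO and untreated WT cells, and its labels give neither the allele nor the ApoE status. The labels do not say whether replicates came from separate animals, so p-values measure a spread that may be technical. In fits of both cohorts that spread also holds any disagreement between the cohorts.

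Each cytosolic ribosome holds 1 copy of nearly every ribosomal protein, so the genes are transcribed at high and matched rates in growing cells. Their promoters are typically short and GC-rich, and transcription starts within a run of pyrimidines, the 5′ TOP motif, through which mTOR controls translation of the mRNAs. Because almost every cell needs them, they serve as housekeeping genes against which regulated chromatin can be set.

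For each gene, a boundary peak was a peak whose summit, or centre in the Omni-ATAC lists, lay within 1 kb of the gene's start or end. The level of a gene in a library was the score percentile of its highest-scoring boundary peak, where 100 is the highest peak score in the list. Percentiles were taken in lists cut to the same length within a cohort, with 0 for a gene outside that list, so 0 means low or uncalled and not closed. The autosomal lists held 80394 to 138132 peaks in the Omni-ATAC cohort and 24397 to 44524 in the ApoE KO cohort, and the number of reads behind them is unknown. Levels are therefore compared within a cohort. The fits of genotype and treatment below pool both cohorts, with a term for cohort, and assume the same shift and spread in both, although the scales differ. Of 10 macrophage marker genes (among them Csf1r, Adgre1, Cd68 and Spi1), 7 had a boundary peak in all 12 libraries, and Csf1r, Itgam and Fcgr1 lacked one in 1 or more ApoE KO lists. Of 14 autosomal markers of B cells, T cells, neutrophils, mast cells and erythroid cells, 0 had a boundary peak in all 12. Some were called in single lists. Each Omni-ATAC list held 0 to 3 of 3 B cell, 1 to 2 of 3 T cell and 1 of 3 neutrophil markers. It also held 1 of 2 erythroid and 0 of 3 mast cell markers. Each ApoE KO list held 0 B cell and 0 mast cell markers, and 0 to 1 of each other type.

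The promoter sequences below, from RefSeq (GRCm38.p6, the assembly of mm10), run from 100 bases before the annotated transcription start to 20 bases after it, 5′ to 3′ on the strand of the gene. Capitals mark the letters searched, on either strand. CCGGAAG is the core that ETS factors such as GABP bind. GGGCGG is the site of SP factors, and CCAAT that of NF-Y. TATAAA stands for the TATA box, and TCGCGAG is an element with a palindromic middle. CTTTC, the TOP-like letters, was searched on the sense strand close to the start only. The first set are the 3 core or paralogous genes with the highest percentiles.
Rpl15 (chr14:18270967-18271086, minus strand): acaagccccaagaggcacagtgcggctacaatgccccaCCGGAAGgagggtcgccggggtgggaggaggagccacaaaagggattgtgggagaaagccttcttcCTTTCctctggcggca
Rpl22l1 (chr3:28805408-28805527, plus strand): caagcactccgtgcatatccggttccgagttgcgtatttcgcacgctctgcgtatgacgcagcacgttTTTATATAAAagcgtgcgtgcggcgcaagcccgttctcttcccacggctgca
Rpl37 (chr15:5116513-5116632, plus strand): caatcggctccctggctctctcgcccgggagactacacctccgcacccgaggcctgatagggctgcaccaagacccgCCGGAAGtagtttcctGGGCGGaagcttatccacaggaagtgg
The second set carries CTCGCGAG, the full palindrome, and joins 2 genes of high percentile (Rps6 and Rpl27a) to 2 of low percentile (Rpl26 and Rpl12).
Rps6 (chr4:86857348-86857467, minus strand): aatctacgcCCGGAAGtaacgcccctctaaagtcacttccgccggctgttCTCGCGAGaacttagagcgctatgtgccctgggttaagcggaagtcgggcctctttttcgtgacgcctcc
Rpl27a (chr7:109519095-109519214, plus strand): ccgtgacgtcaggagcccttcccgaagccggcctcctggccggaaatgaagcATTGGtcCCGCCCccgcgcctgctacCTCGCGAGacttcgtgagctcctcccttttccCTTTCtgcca
Rpl26 (chr11:68901466-68901585, plus strand): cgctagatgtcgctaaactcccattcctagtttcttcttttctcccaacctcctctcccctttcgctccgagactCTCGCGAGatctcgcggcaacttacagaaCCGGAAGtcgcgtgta
Rpl12 (chr2:32961612-32961731, plus strand): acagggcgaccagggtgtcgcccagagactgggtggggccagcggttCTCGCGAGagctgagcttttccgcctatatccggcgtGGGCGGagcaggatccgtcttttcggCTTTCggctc
The third set are genes whose RefSeq start lies inside the gene record, more than 1 kb from both of its ends.
Rps2 (chr17:24719963-24720082, plus strand): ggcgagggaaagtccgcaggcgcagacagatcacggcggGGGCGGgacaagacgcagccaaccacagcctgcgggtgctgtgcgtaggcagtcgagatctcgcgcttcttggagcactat
Rpl19 (chr11:98026610-98026729, plus strand): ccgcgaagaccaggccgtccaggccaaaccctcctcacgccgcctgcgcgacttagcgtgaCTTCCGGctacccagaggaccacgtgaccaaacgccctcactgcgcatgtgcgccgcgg
Rps27l (chr9:66945986-66946105, plus strand): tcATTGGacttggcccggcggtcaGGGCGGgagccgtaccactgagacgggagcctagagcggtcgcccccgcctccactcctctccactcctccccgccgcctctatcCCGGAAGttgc
The last is a retrogene with no peak in any library.
Rpl10l (chr12:66284382-66284501, minus strand): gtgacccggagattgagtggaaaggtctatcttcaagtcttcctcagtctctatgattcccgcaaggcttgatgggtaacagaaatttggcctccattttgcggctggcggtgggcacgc

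Most ribosomal protein genes were open in every library. A boundary peak was called in 12 of 12 libraries at 65 of 81 genes (80.2%), against 39.4% of all autosomal protein-coding genes. Among core genes the count was 61 of 69 (88.4%). Among the 78 mitochondrial ribosomal protein genes (Mrpl and Mrps), which serve another ribosome, it was 57 (73.1%). A neighbouring protein-coding gene lay within 1 kb at 26 of these 65 genes, so a boundary peak there may belong to either gene. Ribosomal protein pseudogenes gave the opposite picture: 2 of 272 had a boundary peak in every library and 231 had none. The X-linked genes Rpl10, Rpl36a, Rpl39 and Rps4x lie outside the autosomal rule, and each had a boundary peak in 4 of 4 Omni-ATAC libraries.

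Library by library, 91.3 to 97.1% of core genes had a boundary peak in the ApoE KO cohort and 95.7 to 97.1% in the Omni-ATAC cohort. The same share of all genes was between 44.6 and 52.1% in the ApoE KO cohort and between 59.2 and 66.1% in the Omni-ATAC cohort. Each library had a boundary peak at 4 or 5 of the 12 other copies. Core shares are close to the ceiling of the measure and the lists differ in length, so no difference in stability is read from these ranges.

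**Figure D1:**
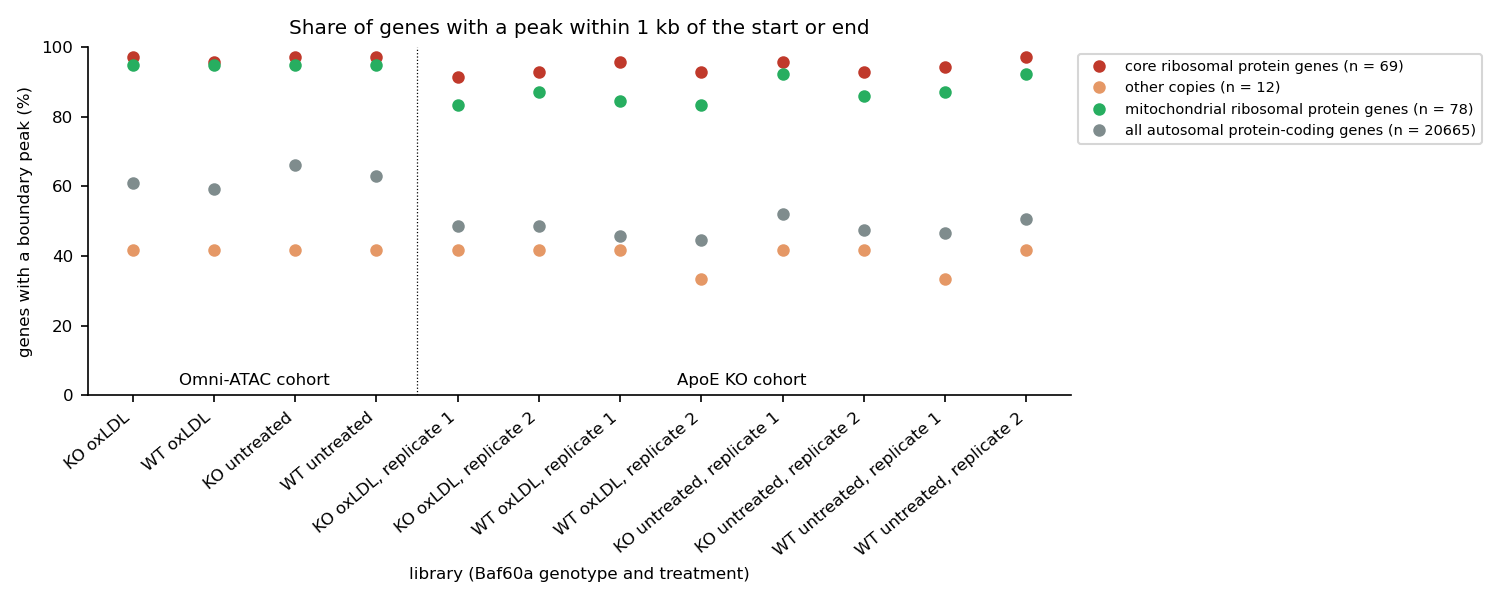
Percent of genes with a peak within 1 kb of the gene start or end (vertical axis) in each of the 12 libraries (horizontal axis), for 69 core ribosomal protein genes, 12 other copies, 78 mitochondrial ribosomal protein genes and 20665 genes in all. Core genes lie between 91.3 and 97.1% in all libraries, while all genes lie between 44.6 and 66.1%.

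9 genes had no boundary peak in any library (background 31.8% of all genes). Of these, 7 were other copies: Rpl10l, a retrogene known for expression in testis, Rpl39l, also known from testis, and Rpl32l, Rpl37rt, Rps23rg1, Rps27rt and Rps27l. The remaining 2 were the core genes Rps2, at the entrance of the mRNA channel (chr17:24718121-24721927), and Rpl17, beside the peptide exit tunnel. Both had a peak inside the gene record in 12 of 12 libraries, 1641 to 1903 bp from the nearer end of Rps2 and 1509 to 1747 bp from that of Rpl17. Rps27l, a paralogue of Rps27 known as a p53 target, had one as well, 1317 to 1509 bp inside (chr9:66944624-66949522).

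At Rps2 and Rps27l the internal peak lay at the RefSeq start printed above. The percentile of the start peak of Rps2 was 41.0 to 83.7 in the ApoE KO cohort and 80.0 to 91.1 in the Omni-ATAC cohort. That of Rps27l was 65.5 to 86.4 and 93.4 to 98.4 in the same cohorts. For these genes the RefSeq record begins well upstream of the start that was open. When a peak at any RefSeq start also counted, a choice made after seeing the data, 69 of 81 genes had a peak in 12 of 12 libraries and 7 had none.

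7 genes had a boundary peak in some libraries only. Rpl19, at the exit of the peptide tunnel (chr11:98022003-98030493), was called in 4 Omni-ATAC libraries but in 1 ApoE KO library, and Rpl38, of the same region of the large subunit, in 3 and 5. Both had a peak at a RefSeq start in 12 of 12. Rpl6 was called in 4 Omni-ATAC and 6 ApoE KO libraries, Rpl26 in 4 and 5, Rps28 in 4 and 7, and Rps19bp1 in 4 and 6. Rpl7 was missed in 1 oxLDL KO library of the ApoE KO cohort, where a peak was present but its summit lay over 1 kb from the gene end. Every one of the 7 except Rpl38 was called in 4 of 4 Omni-ATAC libraries.

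Among genes that were called, ribosomal protein genes ranked about where other open genes ranked in the ApoE KO cohort, and higher by median in each Omni-ATAC library. Their median percentile per library was 61.9 to 77.4 in the ApoE KO cohort, against 61.7 to 73.2 for all genes called there. In the Omni-ATAC cohort it was 80.8 to 89.5, against 74.6 to 85.9 for all called genes. By library there it was 87.5 against 83.4 in oxLDL KO and 89.5 against 85.9 in oxLDL WT cells. In untreated cells it was 80.8 against 74.6 in KO and 86.8 against 81.6 in WT. For called mitochondrial ribosomal protein genes the medians were 59.5 to 72.9 and 85.5 to 89.5 in these cohorts. The median fold enrichment of the best boundary peak, the authors' value given only in the ApoE KO lists, was 4.46 to 6.66 for ribosomal protein genes and 4.51 to 6.45 for all genes. Small subunit genes had medians of 70.1 to 81.7 and large subunit genes of 61.1 to 74.0 in the ApoE KO cohort.

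The genes differed widely among themselves. Rpl15, a protein of the large subunit core (chr14:18267823-18270986), had the highest mean percentile, with 99.5 and 99.9 in oxLDL KO, 98.4 and 99.3 in oxLDL WT, 99.6 and 99.9 in untreated KO and 99.3 and 99.2 in untreated WT libraries of the cohort on the ApoE KO background. In the Omni-ATAC cohort its percentile was 99.3 in oxLDL KO, 99.9 in oxLDL WT, 96.6 in untreated KO and 99.1 in untreated WT cells. Every library thus placed it among the top few percent of its peaks, with a fold enrichment of 9.68 to 14.5, and its promoter also lies beside Nkiras1. Rpl22l1, the paralogue of Rpl22, followed with a mean of 97.8 and fold enrichments of 9.32 to 14.0. Rpl37, Rpl30 and Rpl34, all of the large subunit, had means of 97.0, 96.7 and 96.6. The spread over libraries was small at the top: Rpl22l1 had 98.4 ± 0.659 in the ApoE KO cohort (SD, n = 8) and 96.6 ± 1.92 in the Omni-ATAC cohort (SD, n = 4). In the ApoE KO cohort every percentile of Rpl15 (98.4 to 99.9) lay above every one of Rpl34 (94.0 to 97.7), while neighbours in this order of 5 overlapped.

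At the low end, Rpl19 had a mean of 14.8 and Rpl38 of 23.9, while the peaks at their RefSeq starts averaged 28.5 and 62.0. Rpl6, a large subunit protein whose best peak lies at its start, had 3.31 ± 7.27 in the ApoE KO cohort (SD, n = 8) and 82.3 ± 3.91 in the Omni-ATAC cohort (SD, n = 4). Its ApoE KO percentiles were 0 and 0 in oxLDL KO, 5.89 and 0 in oxLDL WT, 0 and 0 in untreated KO and 20.5 and 0 in untreated WT libraries. Only 2 of the 8 exceeded 0, both WT. Before the lists were cut to equal length, Rpl6 had a boundary peak in 6 of the 8, in both genotypes. Its widths there were 658 and 273 bp in untreated KO and 451 and 527 bp in untreated WT libraries. With oxLDL they were 619 bp in a KO library and 302 bp in a WT library. Rpl8 had 1.43 and 0 in oxLDL KO, 15.3 and 17.3 in oxLDL WT, 29.2 and 0 in untreated KO and 49.1 and 22.2 in untreated WT libraries of this cohort, and a fold enrichment of 2.37 to 4.64.

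Rpl22 shows how the rule can pick a weaker peak. Its best boundary peak, at a median of 7465 bp from its RefSeq start in the ApoE KO cohort, averaged 34.1, while the peak at that start ran from 85.8 to 93.3 in the ApoE KO cohort and from 92.1 to 93.9 in the Omni-ATAC cohort. Rpl4 (5913.5 bp), Rpl18 (-2691 bp), Rps9 (3129.5 bp) and the muscle paralogue Rpl3l (3858.5 bp) also had the best boundary peak over 1 kb from the RefSeq start (medians in the same cohort); that of Rpl4 lies at its end, beside Snapc5 and Zwilch. Among 48 genes with a RefSeq start and a boundary peak in 12 libraries, 42 had it within 250 bp of that start and the median offset was -42 bp, just upstream.

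**Figure D2:**
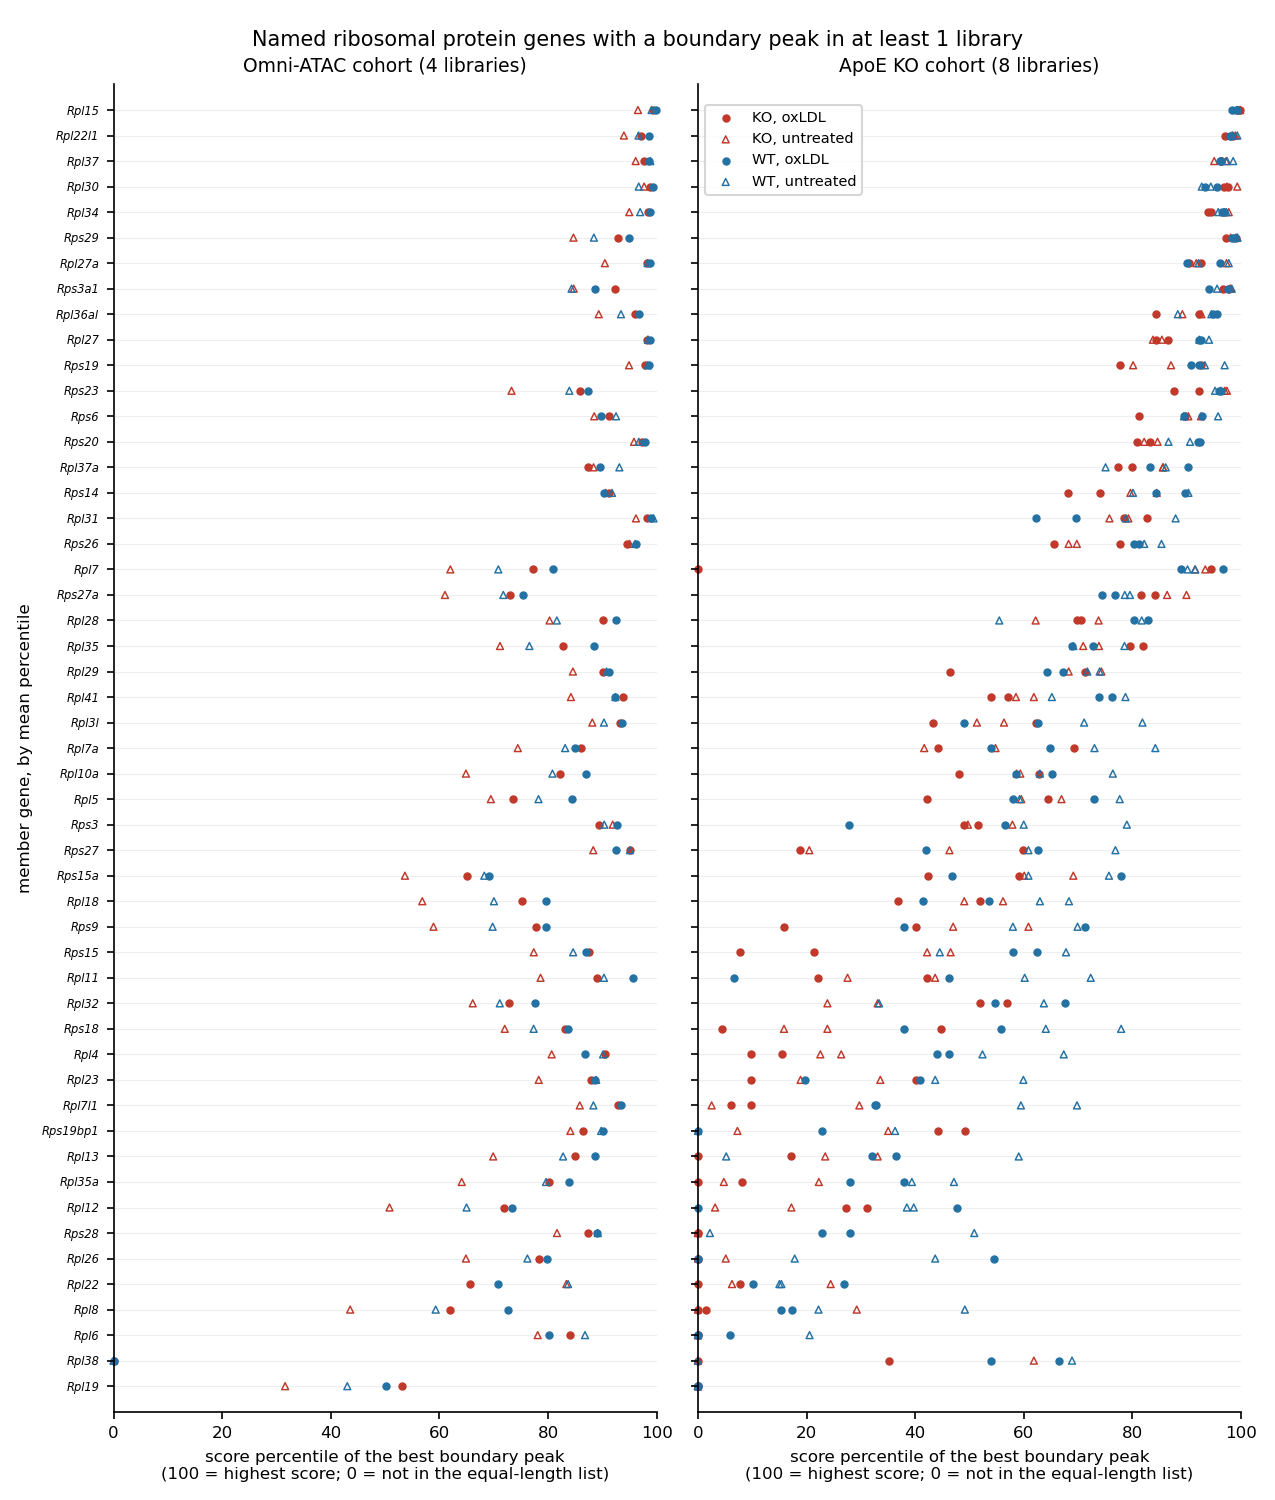
Score percentile of the best boundary peak (horizontal axis, 0 to 100, in lists of equal length within a cohort) of the ribosomal protein genes named in the text that had a boundary peak in at least 1 library (rows, by mean percentile), in the Omni-ATAC cohort (left, 4 libraries) and the ApoE KO cohort (right, 8 libraries). Red marks are KO and blue marks WT, filled for oxLDL and open for untreated; Rpl15 is the top row, and the marks of many lower rows lie far apart in the ApoE KO cohort.

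The cohorts ordered the genes in part alike. Over the 65 genes called in 12 libraries the mean percentiles of the 2 cohorts had Pearson's r of 0.589 and Spearman's rho of 0.595, a description only, since the genes are not replicates and the cohorts differ in list length. Percentiles in lists of 24397 peaks (ApoE KO) and 80394 peaks (Omni-ATAC) are on different scales, and the medians of all called genes were 61.7 to 73.2 in the ApoE KO and 74.6 to 85.9 in the Omni-ATAC libraries, so values are set side by side here and no difference in level is read from them. Rps23 had 94.8 ± 3.28 in the ApoE KO and 82.6 ± 6.37 in the Omni-ATAC cohort (SD, n = 8 and n = 4, as in the next values). Rps27a, which encodes a ribosomal protein fused to ubiquitin, had 81.4 ± 5.19 in the ApoE KO and 70.3 ± 6.36 in the Omni-ATAC cohort. Rpl7l1 had 30.3 ± 24.5 and Rpl13 25.8 ± 18.8 in the ApoE KO cohort, beside 90.1 ± 3.65 for Rpl7l1 and 81.6 ± 8.18 for Rpl13 in the Omni-ATAC cohort. The cohorts also differ in protocol, in peak caller and in where the libraries were prepared, and the ApoE KO cohort came from cryopreserved cells. These differences cannot be told apart, and the ApoE status of the Omni-ATAC cells is not labelled.

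**Figure D3:**
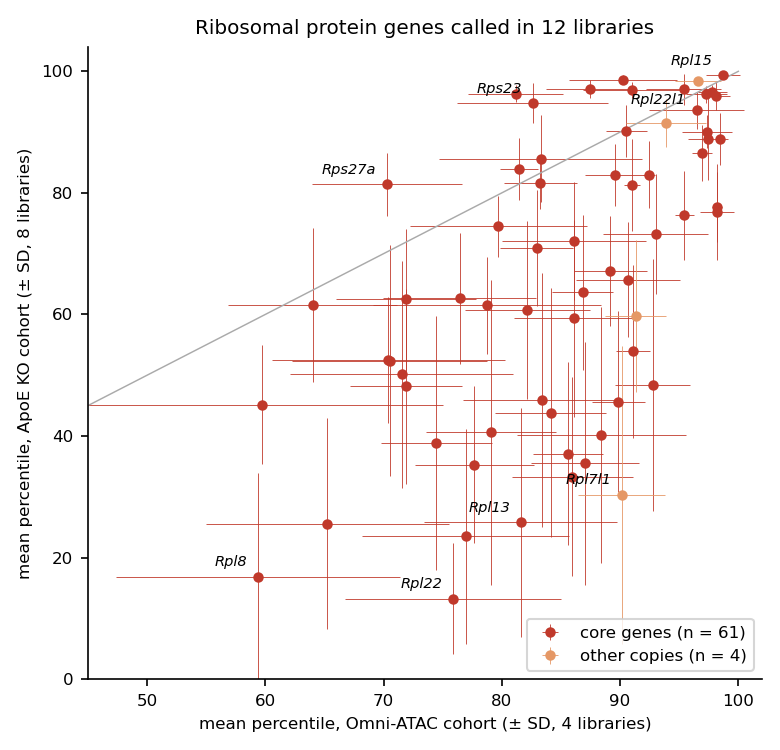
Mean score percentile of the 65 genes called in 12 libraries in the Omni-ATAC cohort (horizontal, SD over 4 libraries) and in the ApoE KO cohort (vertical, SD over 8 libraries), with core genes in red and other copies in orange and a grey line of equality. Genes near the top right corner, such as Rpl15, have high percentiles in both; Rpl7l1 and Rpl13 lie below the line, in lists of different length.

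By role, the 5S RNP pair Rpl5 and Rpl11, which also bind Mdm2, had mean percentiles of 62.6 and 40.1 in the ApoE KO cohort and 76.4 and 88.4 in the Omni-ATAC cohort. Of 9 proteins that line the peptide exit tunnel or ring its mouth, 5 were called in 12 libraries, from Rpl31 (76.8 ± 7.90 in the ApoE KO cohort, SD, n = 8) down to Rpl22, with 13.2 ± 9.12 there (SD, n = 8). The others were Rpl26 and, with a peak at a RefSeq start or inside the gene record in 12 of 12 libraries, Rpl17, Rpl19 and Rpl38. Of 5 proteins at the mRNA channel, Rps3, Rps14 and Rps26 were called in 12, and Rps26 had 76.3 ± 7.39 in the ApoE KO cohort (SD, n = 8). Rps28 and Rps2, the latter with a peak at its RefSeq start in 12 of 12, were the others there. Of 7 paralogues, Rpl22l1, Rpl36al, Rpl7l1 and Rpl3l were called in 12, and Rpl36al, the autosomal copy of the X-linked Rpl36a, had a mean percentile of 92.3. Rpl3l had a peak at a RefSeq start in 0 libraries. Msrb1 lies within 1 kb of an end of Rpl3l, so its boundary peak may belong to either gene. Called in 12 libraries were 88.4% of core genes, 33.3% of other copies and 39.4% of all genes. No ranking of roles is read from so few genes. The spread over libraries differed between genes: in the ApoE KO cohort Rpl11 had 40.1 ± 21.1 and Rpl7, at 0 in the library where it was missed, 80.8 ± 32.8 (SD, n = 8 each).

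The 5 genes with the widest boundary peaks among those called in 12 libraries were Rps3a1, Rpl36al, Rps29, Rpl30 and Rpl34, with mean percentiles of 92.3 to 96.7. The peak of Rps3a1 was 1096 and 1374 bp in oxLDL KO, 1024 and 1556 bp in oxLDL WT, 1736 and 1325 bp in untreated KO and 1135 and 1174 bp in untreated WT libraries, in the ApoE KO cohort. Among the narrowest were those of Rpl22, Rpl13, Rpl28 and Rps15; the peak of Rpl22 was 230 and 302 bp in oxLDL KO, 136 and 190 bp in oxLDL WT, 329 and 137 bp in untreated KO and 139 and 229 bp in untreated WT libraries. The median width of called members was 553.5 to 883 bp per ApoE KO library and 1202 to 1495 bp per Omni-ATAC library, against 612 to 884 bp and 1062 to 1238 bp for all called genes.

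RefSeq start windows, which reach from 250 bases before to 50 after the start, were at hand for 62 of the 81 genes, 50 of them core genes with 60 windows. CCGGAAG, read on either strand, was in 36.7% of core windows, 34.7% of mitochondrial ribosomal protein windows and 11.9% of all 20085 windows. AAGATGG (YY1) was in 18.3% of core windows, 17.3% of mitochondrial ones and 6.29% of all. TCGCGAG was in 25% of core windows, 2.67% of mitochondrial ones and 2.56% of all. CTTTC between 10 bases before and 20 after the start, on the sense strand only, was in 21.7% of core windows, 1.33% of mitochondrial ones and 3.5% of all. GGGCGG was in 58.3% of core and 47% of all windows, CCAAT in 28.3% and 38.1%, TATAAA in 5% and 12.7%, and GCATGCG (NRF1) in 6.67% and 4.51%. The median GC content of core windows was 58.5%, and that of all windows 57%. In the full palindrome the element TCGCGAG overlaps its own reverse complement, and the ETS letters can share their end with the start of the YY1 letters.

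TCGCGAG was found at 14 core genes (Rpl7a, Rpl10a, Rpl12, Rpl26, Rpl27a, Rpl35, Rpl37a, Rps3a1, Rps6, Rps9, Rps15, Rps15a, Rps19 and Rps28), at 12 of them between 100 bases before and 10 after the start. The full palindrome CTCGCGAG was in 13.3% of core windows and 1.21% of all windows. The levels of genes with and without the letters lay in the same range: the median start-peak percentile over 12 libraries was 67.6 (35.0 to 94.5) with the letters and 70.8 (22.4 to 99.2) in the 36 core genes without them. Genes with CCGGAAG had a median of 76.2 (28.5 to 99.2) against 67.2 (22.4 to 92.5) without it, so the ranges overlapped. For CCAAT, which was less frequent in core windows than in all windows, the medians were 79.18 with and 67.55 without it. These are letter matches in fixed windows, and no factor was measured.

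For Baf60a loss, 0 of 12290 genes tested (0%) passed an adjusted p of 0.05 for percentile, by limma over all genes with genotype, treatment and cohort in 1 model, and 1532 had an unadjusted p below 0.05. Of the 81 ribosomal protein genes, 72 had a boundary peak in at least 4 of 12 libraries and were tested. Of these 72, 64 had an estimate below 0 in KO against WT, beside 71.6% of all genes tested. Their median estimate was -6.07 percentile points and that of all genes -2.19. 15 of the 72 had an unadjusted p below 0.05 and all 15 were lower in KO, beside 11.3% of all genes that were lower at that level. In full lists, not cut to equal length, 0 members were lower and 1 higher at that level, with 123 of all genes lower and 687 higher. Without the 3 libraries whose deposited names carry another lane tag, 1 member was lower and 0 higher. Of all 12721 genes tested in that setting, 495 were lower and 156 higher. The median estimate there was -3.67 for members, with 61 of 72 below 0, and -1.73 for all genes. The lowest adjusted p of a member by limma was 0.305 in equal-length lists of all 12 libraries, and 0.0599 with the ApoE KO cohort fitted alone. Without the oxLDL KO library of the Omni-ATAC cohort it was 0.0507.

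The size of the difference depended on how lists of unequal length were handled. With full lists, where KO lists are mostly longer, the median of all genes became 1.25 and that of ribosomal protein genes -0.39, with 45 of 72 below 0. Relative to the median of all genes, the members' median stood at -3.88 points in equal-length lists and at -1.64 in full lists. Across strata in equal-length lists, the median of the KO minus WT difference of the 72 genes was -6.44 with oxLDL in the ApoE KO cohort (all genes -0.376) and -5.55 untreated (all genes 0). In the Omni-ATAC cohort it was -0.80 with oxLDL (all genes -1.12) and -5.80 untreated (all genes -3.16). In full lists these medians were 0.0597 with oxLDL (all genes 1.40) and -1.92 untreated (all genes 0) in the ApoE KO cohort. In the Omni-ATAC cohort they were 0.127 with oxLDL (all genes 0.408) and -1.37 untreated (all genes 0.153). Genes at 0 in both genotypes count in the all-gene medians as a difference of 0, mostly in the ApoE KO cohort, where fewer genes were called. Fitted alone in equal-length lists, with genes filtered by their calls there, that cohort gave a member median of -7.76 and an all-gene median of -2.26. With both cohorts and only genes called in 12 of 12 libraries, the medians were -5.76 and -2.62. The untreated KO library of the Omni-ATAC cohort, with the longest list there (138132 peaks), ranked 60 of 71 members (84.5%) lowest of the 4 libraries in equal-length lists, beside 61.1% of all genes, and 32 of 72 (44.4%) in full lists, beside 25.5%. The part of list length in the differences was not tested.

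**Figure D4:**
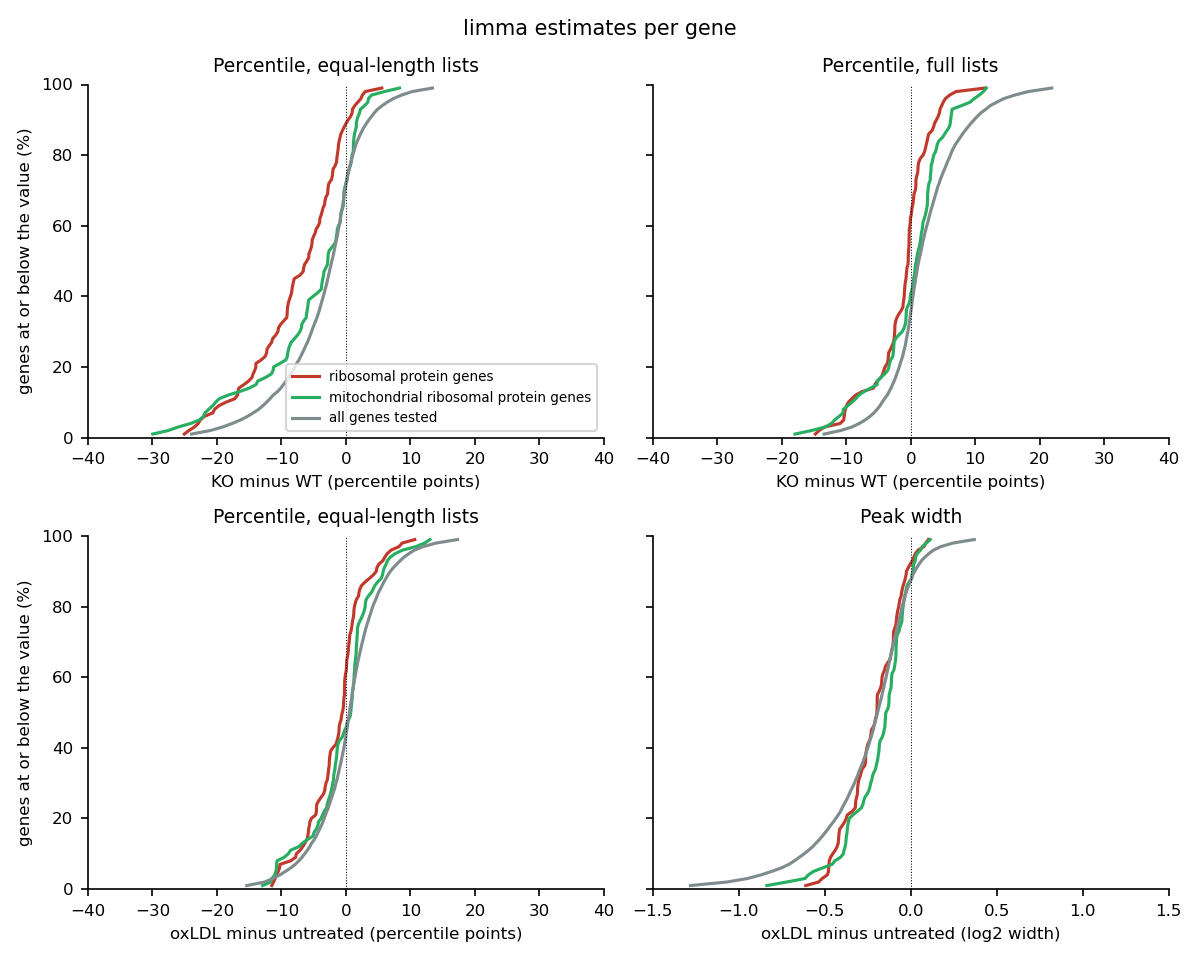
Percent of genes (vertical axis) at or below each limma estimate (horizontal axis) for 72 ribosomal protein genes, 75 mitochondrial ribosomal protein genes and all genes tested: KO minus WT percentile in equal-length lists (top left) and full lists (top right), oxLDL minus untreated percentile (bottom left) and log2 peak width (bottom right). In equal-length lists the ribosomal protein line lies left of that of all genes for KO minus WT (medians -6.07 and -2.19), while for width with oxLDL the medians are close (-0.20 and -0.19).

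Rpl35a, of the large subunit, had percentiles of 8.16 and 0 in oxLDL KO against 38.0 and 28.0 in oxLDL WT libraries of the ApoE KO cohort, and 22.3 and 4.76 in untreated KO against 47.1 and 39.4 in untreated WT libraries. In the Omni-ATAC cohort it had 80.1 in oxLDL KO against 83.9 in oxLDL WT, and 64.1 in untreated KO against 79.6 in untreated WT. All 4 ApoE KO cohort KO libraries were below all 4 WT libraries, and the limma difference was -22.8 ± 5.75 (SE), adjusted p = 0.305. Rpl4, of the exit tunnel, had 9.78 and 15.4 in oxLDL KO against 46.2 and 44.0 in oxLDL WT and 22.5 and 26.4 in untreated KO against 52.4 and 67.4 in untreated WT libraries of that cohort, at a peak beside the end of the gene. In the Omni-ATAC cohort Rpl4 had 90.6 in oxLDL KO against 86.8 in oxLDL WT, and 80.7 in untreated KO against 90.1 in untreated WT, so the oxLDL pair ran the other way. Its limma difference was -23.6 ± 6.31 (SE), adjusted p = 0.305. Rpl41, the shortest ribosomal protein, differed by -11.5 ± 3.46 (SE), adjusted p = 0.316 by limma.

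Within the ApoE KO cohort, all 4 KO libraries were below all 4 WT libraries at 8 of 72 genes (Rpl4, Rpl7l1, Rpl27, Rpl35a, Rpl41, Rps20, Rps26 and Rps28), beside 5.79% of all genes tested, and above at 3 (Rpl15, Rpl30 and Rps27a), beside 1.18%. Rpl30 had 97.7 and 96.9 in oxLDL KO against 93.3 and 95.6 in oxLDL WT and 99.3 and 97.4 in untreated KO against 92.8 and 94.4 in untreated WT libraries there, and a limma difference of 2.60 ± 1.31 (SE), adjusted p = 0.464. Rps27a had 3.26 ± 3.45 (SE), adjusted p = 0.700, and Rps19bp1 11.2 ± 8.70 (SE), adjusted p = 0.595 by limma. None of these single-gene differences passed the threshold.

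For oxLDL, 0 of 12290 genes (0%) passed for percentile by limma and 607 had an unadjusted p below 0.05, 1 of them a member. Of the 72 members, 44 were below 0 in oxLDL against untreated, with a median of -0.56 against 0.55 for all genes, of which 43.2% were below 0. In full lists 63 of 72 members were below 0, with a median of -5.38 against -3.56 for all genes, and 6 members and 1249 of all genes were lower with an unadjusted p below 0.05. Without the 3 libraries of the other lane tag the members' median was 2.06 and that of all genes 1.07. The member with an unadjusted p below 0.05 was Rpl32, with 51.9 and 56.9 in oxLDL KO against 33.1 and 23.8 in untreated KO and 54.8 and 67.6 in oxLDL WT against 33.4 and 63.7 in untreated WT libraries of the cohort on the ApoE KO background, and a limma difference of 15.1 ± 5.65 (SE), adjusted p = 0.788. Rpl28 and Rpl35 had 8.47 ± 4.32 (SE), adjusted p = 0.788 and 5.71 ± 2.99 (SE), adjusted p = 0.788 by limma. At the lower end Rpl22 had -7.81 ± 4.33 (SE), adjusted p = 0.788 at its boundary peak far from the start, against an estimate of 2.12 at the start itself. Below 0 were also Rps3, with -10.3 ± 6.13 (SE), adjusted p = 0.788, and Rpl31, with -4.57 ± 3.03 (SE), adjusted p = 0.791 by limma. In equal-length lists the sign differed between cohorts: fitted alone, the Omni-ATAC libraries gave a median of 4.73 over members (all genes 2.26) and the ApoE KO libraries -3.66 (all genes -0.314). In full lists the Omni-ATAC difference had a member median of 1.12 in KO (all genes -0.80) and -0.258 in WT cells (all genes -1.15), and that of the ApoE KO cohort -3.21 in KO (all genes -1.09) and -8.66 in WT cells (all genes -3.67). The difference between cohorts was not tested.

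The interaction of genotype and oxLDL passed at 0 of 12290 genes (0%) for percentile by limma, with 443 unadjusted p below 0.05, 3 of them members. The median of the 72 members was 1.75, against 0.49 for all genes, and 46 were above 0. Without the 3 libraries of the other lane tag the members' median was -0.17 and that of all genes 0.19.

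Peak width gave no call by limma in any of these comparisons: 0 of 12289 genes (0%) for KO against WT, 0 of 12284 (0%) for oxLDL against untreated and 0 of 12154 (0%) for their interaction. With an unadjusted p below 0.05 there were 1096, 1521 and 261 genes, of which 3, 6 and 4 were members. For KO against WT, 62 of 72 members were above 0 with a median log2 difference of 0.14, beside 81.5% of all genes and a median of 0.15. For oxLDL against untreated, 66 of 72 were below 0 with a median of -0.20, beside 87.6% of all genes and a median of -0.19. In both comparisons the median of the members thus lay close to that of all genes. Widths were taken from full lists, and KO lists and untreated lists are mostly longer. The part of list length in the width differences was not tested.

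By limma, Rps23, of the small subunit, had a KO minus WT log2 width of 0.37 ± 0.11 (SE), adjusted p = 0.543, Rps14, lost in the human 5q- syndrome, 0.54 ± 0.18 (SE), adjusted p = 0.543 and Rpl23 0.45 ± 0.20 (SE), adjusted p = 0.543. The widths of Rps14 were 999 and 947 bp in oxLDL KO against 610 and 422 bp in oxLDL WT and 955 and 1121 bp in untreated KO against 549 and 922 bp in untreated WT libraries, in the ApoE KO cohort. Its KO peaks there, with oxLDL and untreated (947 to 1121 bp), were all wider than its WT peaks (422 to 922 bp). On the other side Rps15, Rps18 and Rps28 had -0.32 ± 0.29 (SE), adjusted p = 0.683, -0.35 ± 0.33 (SE), adjusted p = 0.696 and -0.31 ± 0.30 (SE), adjusted p = 0.699 by limma. With oxLDL the smallest limma p-values for narrower peaks were those of Rpl37a (-0.32 ± 0.11 (SE), adjusted p = 0.395), Rpl29 (-0.55 ± 0.20 (SE), adjusted p = 0.395) and Rpl31 (-0.48 ± 0.18 (SE), adjusted p = 0.395). For wider peaks they were Rpl27a (0.13 ± 0.12 (SE), adjusted p = 0.599), Rpl34 (0.09 ± 0.14 (SE), adjusted p = 0.739) and Rps9 (0.08 ± 0.23 (SE), adjusted p = 0.862).

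Most genes examined that work with the ribosomal proteins also had a boundary peak in every library, beside 39.4% of all autosomal protein-coding genes. The 6 autosomal genes examined for ribosomal proteins outside the symbol rule (Rplp0, Rplp1, Rplp2, Rpsa, Fau and Rack1) each had a boundary peak in 12 of 12 libraries, as did 13 of 14 translation factor and TOP mRNA genes (Npm1, a nucleolar chaperone, was the exception) and 14 of 14 autosomal ribosome assembly genes. Of 6 genes for ribosomal RNA transcription, 5 were called in 12, and Ubtf, which encodes a factor of RNA polymerase I, in 0. A peak inside the gene record of Ubtf is not reported here, so Ubtf is not read as closed. None of the genes in these sets passed the limma test for KO against WT percentile. In equal-length lists, estimates were below 0 at 6 of 6 genes outside the symbol rule and 14 of 14 translation factor genes. They were below 0 at 11 of 14 assembly genes and 2 of 5 ribosomal RNA transcription genes, beside 71.6% of all genes tested. Medians in this order were -13.0, -4.17, -5.54 and 0.40 percentile points, beside -2.19 for all genes. For mitochondrial ribosomal protein genes 54 of 75 were below 0, with a median of -2.82. These sets are given in equal-length lists only. In full lists the median of all genes was 1.25 and that of the ribosomal protein genes tested -0.39.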

How the data were processed

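Per the labels' protocols, BMDM libraries were sequenced as paired ends. Bowtie2 2.3.4.1, SAMtools 1.2, bedtools 2.28.0, Picard, Trim Galore and cutadapt, with MACS3 for the Omni-ATAC cohort and MACS2 for the ApoE KO cohort, are named for build mm10 in the submitters' processing notes. What each step was set to, such as a transposase shift or duplicate removal, is not given in the sources used here. In the deposited lists there is, per peak, a caller score by the authors (at least 13) and, in the ApoE KO cohort, a fold enrichment (a ratio) and the -log10 of p and q values as deposited by the authors. Peaks were called per library. The lists give no read numbers, so the depth behind them is unknown and no depth-based interval is printed.

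Gene positions and promoter windows came from RefSeq tables of GRCm38.p6. Percentiles used the 80394 highest-scoring autosomal peaks per library in the Omni-ATAC cohort and 24397 in the ApoE KO cohort. Genes with a boundary peak in at least 4 of 12 libraries were fitted with limma 3.58.1 in R 4.3.3 on percentile, or on log2 width of the best boundary peak, with a term for cohort and 4 groups of genotype and treatment, Benjamini-Hochberg adjustment over all genes and a threshold of 0.05. Where a library had no boundary peak, the percentile was 0 and the width was left out of the fit. Python 3.11.15 with numpy 2.4.6, pandas 2.3.3 and matplotlib 3.10.9 did the rest, and the fit was tested on simulated data.

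Genes were named where they lacked a boundary peak in a library, were among the 5 highest, lowest, widest or narrowest, had the 3 smallest p per direction in a limma comparison of genotype or treatment, or belong to a role list (5S RNP, exit tunnel, mRNA channel, ubiquitin fusion, paralogues); others were named for comparison after their values were seen. The members, lists and motifs were chosen with earlier results of these data known. Some genes that these rules select are not reported here.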

Additional observations from a re-analysis of the deposited data

How the results depend on the processing

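The count of 65 ribosomal protein genes with a boundary peak in 12 of 12 libraries became 66 with peak centres in both cohorts, 58 within 500 bp, 67 with any overlap, 56 at scores of at least 50, 60 in equal-length lists, 49 of 62 at the RefSeq start alone, 69 with boundary or RefSeq start, and 65 to 66 with 1 library left out.

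For percentile, 0 genes were called by limma in the 3 comparisons (KO against WT, oxLDL against untreated, interaction). With the ApoE KO cohort alone the counts were 44, 4 and 5, and without the 3 libraries whose deposited names carry another lane tag 4, 5 and 4; 0 of them were members. Leaving out 1 library gave 0 to 41, 0 to 3 and 0 to 4. The 41 calls came without the oxLDL KO library of the Omni-ATAC cohort. The other settings tried, full lists among them, gave 0 calls, and width gave 0 calls in every alternative tried. The causes were not tested. Whether the replicate numbers shared by the ApoE KO groups pair the samples is not labelled. Deviations of replicates in percentile correlated between -0.121 and 0.0442 over 8235 genes in 6 pairs of groups. Low correlations in this measure cannot exclude a shared animal, culture or batch. With a replicate block the counts stayed at 0 and the member medians for percentile were -6.07, -0.56 and 1.75.

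Of 532 refits of the 24 gene estimates named for their p-values, 512 kept their sign and their side of the threshold and 20 reversed. With the Omni-ATAC cohort alone, the KO minus WT percentile was -4.67 for Rps19bp1 and -6.60 for Rps27a, the oxLDL minus untreated percentile was 0.75 for Rpl31, the KO minus WT log2 width was 0.0153 for Rps15, 0.0830 for Rps18 and 0.24 for Rps28, and the oxLDL minus untreated log2 width was -0.0319 for Rpl27a and -0.0173 for Rpl34. Without the 3 libraries named above, the widths were 0.0716 for Rps18 (KO minus WT) and -0.0106 for Rpl27a and -0.0518 for Rpl34 (oxLDL minus untreated). With starts alone, Rpl22 had 2.12 points and Rps9 -0.21 log2 width with oxLDL; Rps9 also had -0.0489 in the ApoE KO cohort alone and -0.22 for summed width. With 1 library left out, log2 width ran from -0.59 to 0.00096 for Rps28 (KO minus WT), and from -0.0324 to 0.16 for Rpl34 and -0.0805 to 0.25 for Rps9 (oxLDL minus untreated).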
